A study of Mus musculus with 9 samples.

Results

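The genes described here are 9 enzymes and carriers of peroxisomal beta-oxidation, Abcd3, Acox2, Acox3, Ehhadh, Hsd17b4, Acaa1a, Acaa1b, Scp2 and Decr2, chosen by name among the 54146 genes listed in an RNA-seq table of mouse colonic mucosa. Each symbol stood on 1 row of that table. The study asked how methylation of the p16 promoter alters the colon of mice that carry an Apc mutation, and compared 5 ApcMin/+ mice with 4 ApcMin/+; p16cis/cis mice, all of strain C57BL/6J and 15 wk old. All 9 mice carried the germline ApcMin mutation on one allele, so no mouse with unmutated Apc entered the comparison. The ApcMin/+; p16cis/cis mice also carried, on both alleles of p16 and in every cell of the body, a knocked-in cis-element that draws DNA methylation onto the p16 promoter. The labels call the tissue colonic mucosa and the methods name colonic crypts as the source of the RNA. The ApcMin/+ group held 2 females (replicates 1 and 5) and 3 males (replicates 2, 3 and 4), and the ApcMin/+; p16cis/cis group held 1 male (replicate 1) and 3 females (replicates 2, 3 and 4). Each library is labelled as a mouse of its own.

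Peroxisomes shorten the fatty acids that mitochondria handle poorly, which are very long chains, methyl-branched chains and the side chains of bile acid intermediates. ABCD3 carries the acyl-CoA esters across the peroxisomal membrane, acyl-CoA oxidases introduce a double bond and release hydrogen peroxide, a bifunctional enzyme hydrates and oxidizes the product, and a thiolase removes acetyl-CoA or propionyl-CoA. Many of the genes are known targets of PPAR-alpha, a nuclear receptor that pairs with RXR and binds direct repeats of a hexamer spaced by a single base. In the colon, fatty acid oxidation is mainly a task of the mature absorptive cells at the crypt top.

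Acaa1a and Acaa1b, thiolase paralogs on chromosome 9, were so alike in sequence that part of their reads could fit both. Their coding sequences, both 1275 bases long in GENCODE M21 (GRCm38), were identical at 1231 positions (96.5%), with 3 identical runs of 100 bases or more, the longest of 327 bases. The stretch of 60 coding bases with most differences, bases 259 to 318 from the start codon in both genes, is shown because it is where a read separates the paralogs best, and capitals mark the 11 positions that differ:
Acaa1a: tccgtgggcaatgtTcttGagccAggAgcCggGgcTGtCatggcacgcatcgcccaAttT
Acaa1b: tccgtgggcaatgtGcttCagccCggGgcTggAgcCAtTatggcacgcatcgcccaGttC

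Of all 50-base stretches in the principal transcript, 35.1% of those of Acaa1a and 46.2% of those of Acaa1b also occur in another gene. For Acaa1a these were nearly all in Acaa1b, and for Acaa1b they lay in Acaa1a and in Dlec1, which overlaps its end on the other strand. The corresponding share was 41.4% for Scp2, through the pseudogene Scp2-ps2 and through Gm47162, 3.69% for Acox3 and 2.94% for Decr2. Abcd3, Acox2, Ehhadh and Hsd17b4 shared none. Over stretches of 100 bases the shares were lower, at 21.6% for Acaa1a, 30.5% for Acaa1b and 32.2% for Scp2. Values of Acaa1a, Acaa1b and Scp2 are therefore uncertain to the extent that reads were split between copies. Scp2-ps2 was listed at normalized counts of 6.27 to 25.4 and Gm47162 at 0 in the 9 mice.

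The promoters of the thiolases were described by GC content and motif matches, and their sequences were not aligned. RefSeq start sites (GRCm38.p6) were available for 8 of the 9 genes, and each window held 250 bases before the start and 50 after it. The windows of both thiolases are shown because the genes have near-identical coding sequences and only Acaa1b was called, with CCAAT, read on either strand, in capitals:
Acaa1a promoter, chr9:119341044-119341343, plus strand: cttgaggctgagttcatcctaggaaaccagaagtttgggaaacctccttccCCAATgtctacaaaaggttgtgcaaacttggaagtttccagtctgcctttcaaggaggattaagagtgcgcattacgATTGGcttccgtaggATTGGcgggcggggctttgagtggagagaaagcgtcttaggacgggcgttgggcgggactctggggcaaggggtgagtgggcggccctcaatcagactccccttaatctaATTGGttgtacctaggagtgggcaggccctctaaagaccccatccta
Acaa1b promoter, chr9:119157044-119157343, minus strand: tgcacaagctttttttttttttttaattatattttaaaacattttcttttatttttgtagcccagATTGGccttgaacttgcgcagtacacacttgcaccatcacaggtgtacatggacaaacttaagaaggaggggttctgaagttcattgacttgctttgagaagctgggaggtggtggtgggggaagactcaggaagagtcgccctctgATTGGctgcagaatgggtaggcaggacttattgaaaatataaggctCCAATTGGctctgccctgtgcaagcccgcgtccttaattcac

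Both windows held 4 matches to CCAAT, and in Acaa1b 2 of them overlap on opposite strands. A match was present in 37.4% of the 32851 RefSeq promoter windows. GC content was 53.3% in the Acaa1a window and 43.7% in the Acaa1b window, with a median of 52.7% over all windows. The direct repeat AGGTCANAGGTCA, the consensus bound by PPAR and RXR, was found on neither strand in any window of the 8 genes and in 0.0396% of all windows. Its half-site AGGTCA occurred in the Scp2 window and in those of no other member, against 16.3% of all windows. A match is a description of letters, and the lack of one says only that these letters are absent from this window.

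Expression is given as the normalized count, which is the number of reads on a gene divided by a size factor of the mouse. Differences were tested with limma on log2(normalized count + 1) over 14410 genes, and a gene was called when its Benjamini-Hochberg adjusted p was under 0.05. A log2 fold change is the ApcMin/+; p16cis/cis mean minus the ApcMin/+ mean on that scale, so that it understates changes of low genes. The libraries held 15745098 to 17885918 reads on genes in ApcMin/+ mice and 13523500 to 14900228 in ApcMin/+; p16cis/cis mice, without overlap. Transcripts of the mitochondrial genome took 12.0% ± 2.87 of the reads in the 5 ApcMin/+ mice (mean ± SD) and 24.2% ± 4.41 in the 4 ApcMin/+; p16cis/cis mice, with p = 0.00794 in a two-sided exact permutation test, the smallest value that 126 splits allow. Cdkn2a, the gene of p16, was at 0 in all 9 libraries, where 3 reads would be a share of 1.68e-05% to 2.22e-05%, so RNA did not check the genotype labels.

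All 9 members passed the filter on low values, and 6 of them (Acaa1b, Acox2, Ehhadh, Scp2, Hsd17b4 and Abcd3) fell in ApcMin/+; p16cis/cis mice while none rose. The fold changes of all 9 were below 0 in limma, and edgeR and DESeq2 on whole reads also called none higher. Over all genes tested, 8.75% were called lower and 8.14% higher. The median log2 fold change was -0.98 over the 9 members and -0.00 over all genes. In 7 members every ApcMin/+; p16cis/cis mouse was below every ApcMin/+ mouse, as in 8.95% of all genes, and in none was every one above, as in 7.24%. With a fold change over 2 added to the threshold, Acaa1b, Acox2 and Ehhadh were called lower and none higher, against 1.64% and 1.83% of all genes, and with Bonferroni adjustment Scp2 and Hsd17b4 were, against 0.153%. In a bulk sample, fewer cells that express these genes and less RNA per cell cannot be told apart.

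**Figure D1:**
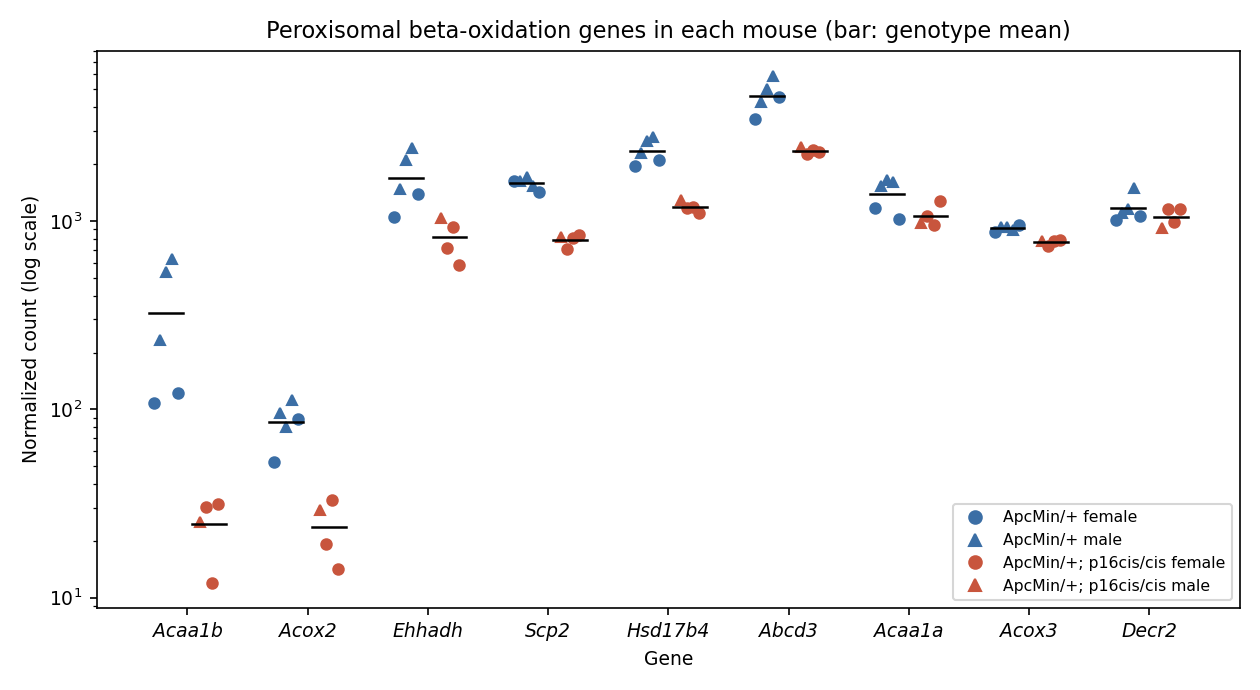
Normalized count (log axis) of each of the 9 genes in every mouse, with ApcMin/+ in blue, ApcMin/+; p16cis/cis in red, circles for females, triangles for males and bars for genotype means. The genotypes do not overlap in 7 genes, and they overlap in Acaa1a and Decr2.

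The carrier Abcd3 (ENSMUSG00000028127.10, chromosome 3 from 121758774 to 121815302 in GRCm38), which encodes the peroxisomal membrane protein PMP70, was the most abundant member per kb of transcript in both genotypes. Its normalized counts were 3464, 4266, 4999, 5873 and 4522 in ApcMin/+ replicates 1 to 5 and 2474, 2278, 2367 and 2317 in ApcMin/+; p16cis/cis replicates 1 to 4. The ApcMin/+; p16cis/cis mice lay close together and below every ApcMin/+ mouse. Abcd3 fell by 0.95 on the log2 scale (standard error 0.13, limma adjusted p = 0.00247), or 1.93-fold. Its overlapping gene Gm43609, on the same strand, was at 4.51 to 49.1.

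Of the oxidases, Acox2 fell and Acox3 did not pass the test. Acox2 (ENSMUSG00000021751.13, chromosome 14 from 8225511 to 8259353) acts on branched chains and bile acid intermediates and was the lowest member per kb of transcript in both genotypes. Its normalized counts were 52.4, 95.1, 80.0, 112 and 88.5 in ApcMin/+ mice and 29.0, 19.1, 33.1 and 14.1 in ApcMin/+; p16cis/cis mice. The groups did not overlap, and the ApcMin/+; p16cis/cis values rest on 9 to 23 reads per mouse. The log2 fold change was -1.83 (standard error 0.31, limma adjusted p = 0.00446). Acox3 (ENSMUSG00000029098.17, chromosome 5 from 35583040 to 35615352), another oxidase of branched chains, ranged from 869 to 950 in ApcMin/+ mice and from 732 to 791 in ApcMin/+; p16cis/cis mice. Those groups did not overlap either, but the log2 fold change was -0.25 (95% confidence interval -0.43 to -0.06, limma adjusted p = 0.0687). In the DESeq2 Wald test on whole reads, Acox3 passed (adjusted p = 0.0361).

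Both bifunctional enzymes, which hydrate and dehydrogenate the chain, fell. Ehhadh (ENSMUSG00000022853.7, chromosome 16 from 21761287 to 21787807), the L-specific enzyme and a PPAR-alpha target, was at 1054, 1480, 2111, 2424 and 1393 in ApcMin/+ mice. In ApcMin/+; p16cis/cis mice it was at 1042, 719, 932 and 581. ApcMin/+ replicate 1 and ApcMin/+; p16cis/cis replicate 1 were nearly level, and ApcMin/+ replicates 3 and 4 stood highest. The log2 fold change was -1.02 (standard error 0.24, limma adjusted p = 0.0155), and it lost the call without ApcMin/+; p16cis/cis replicate 2 (adjusted p = 0.0501) or replicate 4 (adjusted p = 0.0547). Hsd17b4 (ENSMUSG00000024507.6, chromosome 18 from 50128201 to 50196269), the D-specific enzyme that also serves branched chains and bile acid intermediates, was at 1965, 2304, 2669, 2777 and 2096.5 in ApcMin/+ mice. It was at 1286, 1171, 1186 and 1104 in ApcMin/+; p16cis/cis mice, far below the other genotype in every mouse. The log2 fold change of Hsd17b4 was -0.98 (standard error 0.12, limma adjusted p = 0.00155), and its Bonferroni adjusted p from limma over all genes was 0.0316. A pseudogene inside Hsd17b4 on its strand, Cd63-ps, was at 45.4 to 156.

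The thiolases differed from each other in their response. Scp2 (ENSMUSG00000028603.15, chromosome 4 from 108043839 to 108144998), which makes a thiolase for branched chains and, from an inner promoter, a sterol carrier protein, was at 1636, 1636, 1712, 1533 and 1423 in ApcMin/+ mice. It was at 825, 710, 807 and 841 in ApcMin/+; p16cis/cis mice. Scp2 varied little within either genotype, and its fall of 1.00 on the log2 scale (standard error 0.10) had the smallest adjusted p of the members (limma, 0.000615; Bonferroni, 0.00308). The table sums both products of the gene. Podn, which overlaps Scp2 on the same strand, was at 1.57 to 15.2.

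Acaa1b (ENSMUSG00000010651.4, chromosome 9 from 119148023 to 119157093), a thiolase of straight chains, had the largest change of the members. Its normalized counts were 108, 234, 539, 627 and 123 in ApcMin/+ mice and 25.3, 30.3, 12.0 and 31.3 in ApcMin/+; p16cis/cis mice. The ApcMin/+ females were the lowest of their genotype and still stood above every ApcMin/+; p16cis/cis mouse. Acaa1b was 10.5-fold lower (log2 fold change -3.39, standard error 0.52, limma adjusted p = 0.00321), and the lower group rests on 8 to 20 reads per mouse. The overlapping gene Dlec1 was at 3.01 to 11.2.

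Acaa1a (ENSMUSG00000036138.16, chromosome 9 from 119339676 to 119350299), the paralog, was at 1168, 1530, 1648, 1611 and 1028 in ApcMin/+ mice. In ApcMin/+; p16cis/cis mice it was at 979, 1056, 947 and 1274. The genotypes overlapped, and the ApcMin/+ females lay within the range of the ApcMin/+; p16cis/cis mice. The log2 fold change was -0.38 (95% confidence interval -0.72 to -0.04, limma adjusted p = 0.112), and Acaa1a was called when ApcMin/+ replicate 5 was left out (adjusted p = 0.0417). Myd88, which overlaps Acaa1a on the other strand, was at 650 to 770 in ApcMin/+ mice and 820 to 916 in ApcMin/+; p16cis/cis mice. Whether the counting used strand is not stated, so the part of Myd88 in the Acaa1a value was not tested.

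Set side by side within each mouse, Acaa1a was 2.57 to 10.8 times as high as Acaa1b in ApcMin/+ mice and 34.8 to 78.8 times as high in ApcMin/+; p16cis/cis mice. The log2 ratio of Acaa1b to Acaa1a, with 1 added to each, was -2.43 ± 0.90 (SD, n = 5) and -5.45 ± 0.50 (SD, n = 4), a difference of -3.02 with p = 0.00794 in a two-sided exact permutation test, again the smallest possible. Per kb of transcript, Acaa1b made up 17.6% ± 8.99 of the pair in the 5 ApcMin/+ mice (mean ± SD) and 2.33% ± 0.71 in the 4 ApcMin/+; p16cis/cis mice, with p = 0.0159 in an exact permutation test. Reads that fit both paralogs stay inside the sum of the pair, which was 986 ± 290 per kb (SD, n = 5) and 618 ± 87.4 per kb (SD, n = 4), a difference of the group means that did not pass the exact permutation test (two-sided, p = 0.0635).

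**Figure D2:**
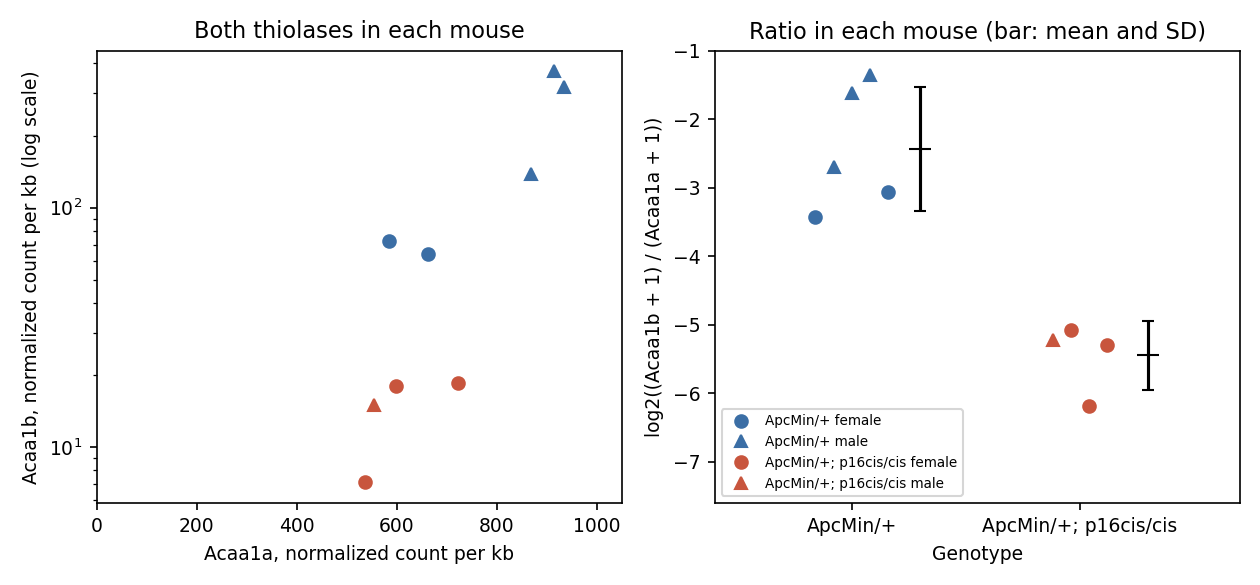
Left, normalized count per kb of transcript of Acaa1b (log axis) against that of Acaa1a in each mouse; right, log2 ratio of Acaa1b to Acaa1a by genotype, with mean and SD. Acaa1b separates the genotypes, while Acaa1a of the ApcMin/+ females (blue circles) lies within the range of the ApcMin/+; p16cis/cis mice (red).

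The accessory enzyme Decr2 (ENSMUSG00000036775.12, chromosome 17 from 26081208 to 26090337), a reductase needed for unsaturated chains, ranged from 1011 to 1487 in ApcMin/+ mice and from 917 to 1155 in ApcMin/+; p16cis/cis mice. The groups overlapped. Its log2 fold change was -0.14 (95% confidence interval -0.42 to 0.14, limma adjusted p = 0.48).

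**Figure D3:**
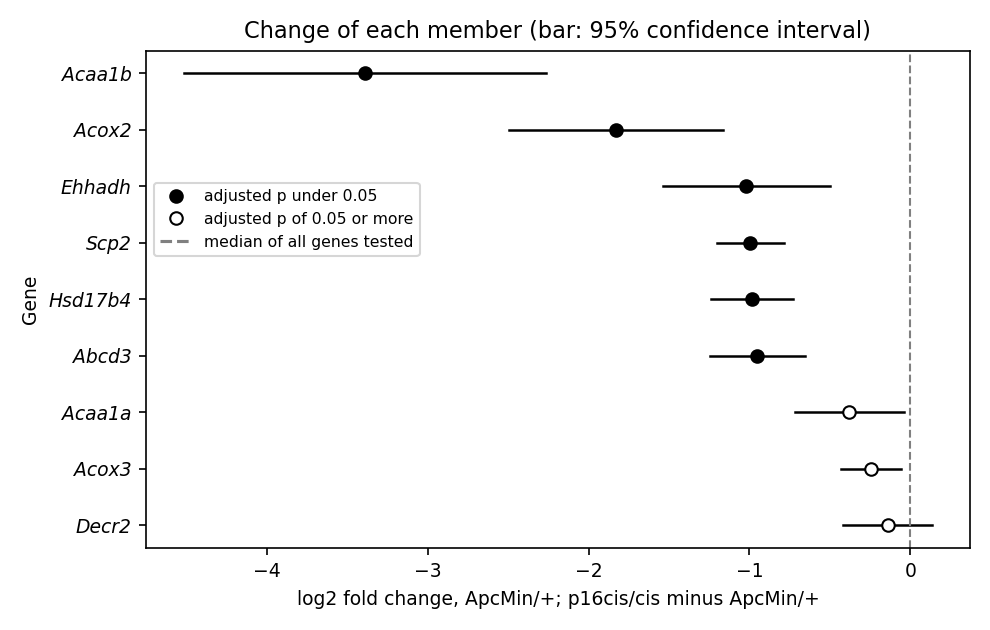
Log2 fold change of each gene (ApcMin/+; p16cis/cis minus ApcMin/+) with its 95% confidence interval, filled where the adjusted p was under 0.05, and the median of all genes tested as a dashed line. Acaa1b at -3.39 and Acox2 at -1.83 lie farthest out, Ehhadh, Scp2, Hsd17b4 and Abcd3 lie between -1.02 and -0.95, and Acaa1a, Acox3 and Decr2 between -0.38 and -0.14.

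The order of the levels per kb of principal transcript differed between the genotypes below the carrier. In ApcMin/+ mice the normalized count per kb was 1326 ± 256 for Abcd3, 880 ± 132 for Hsd17b4, 793 ± 159 for Acaa1a, 602 ± 42.4 for Scp2, 568 ± 188 for Ehhadh and 523 ± 84.6 for Decr2 (SD, n = 5). Neighbors in that order overlapped in range, and Decr2 stood clear of Acox3 at 230 ± 8.15, which overlapped with Acaa1b at 193 ± 143. Acox2 was lowest at 29.4 ± 7.53, clear of Acaa1b. In ApcMin/+; p16cis/cis mice Abcd3 was again first at 676 ± 24.3 (SD, n = 4), overlapping with Acaa1a at 604 ± 83.6. Decr2 at 472 ± 54.1 overlapped with Hsd17b4 at 442 ± 27.9, and Scp2 at 301 ± 22.3 with Ehhadh at 275 ± 69.5, which in turn overlapped with Acox3 at 194 ± 6.71. The bottom pair, Acaa1b at 14.6 ± 5.26 and Acox2 at 8.20 ± 3.01, overlapped with each other and with no other member. As a share of the 9 members per kb, the members that were not called took more in ApcMin/+; p16cis/cis mice, where the sum of the 9 was lower on average. Acaa1a took 15.4% ± 1.73 in the 5 ApcMin/+ mice (mean ± SD) and 20.2% ± 2.55 in the 4 ApcMin/+; p16cis/cis mice, and Decr2 10.2% ± 0.83 and 15.8% ± 1.88. Acox3 took 3.56% to 5.32% in ApcMin/+ mice and 6.29% to 6.73% in ApcMin/+; p16cis/cis mice.

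Among the ApcMin/+ mice, replicate 4, a male, was highest in 6 members, as in 34.4% of all genes tested, and replicate 1, a female, was lowest in 7, as in 16.7%. In 5 members (Acaa1a, Acaa1b, Ehhadh, Hsd17b4 and Decr2) every ApcMin/+ male was above every ApcMin/+ female, for Acaa1b 234 to 627 against 108 to 123, and this order held in 13.5% of all genes. No sex term of a member passed the test over all genes (limma adjusted p of 0.918 or more), nor did any sex by genotype term (limma adjusted p of 0.722 or more, with 1 male ApcMin/+; p16cis/cis mouse). That male was below every ApcMin/+ male in all 9 members, as in 30.6% of all genes. Among females alone, 2 against 3, every ApcMin/+; p16cis/cis mouse was below both ApcMin/+ mice in 7 members, as in 22.0% of all genes. Acaa1b, Abcd3, Hsd17b4 and Scp2 were called lower in females (limma adjusted p of 0.0137 to 0.0281), against 2.63% of all genes. Acaa1b fell by 2.30 on the log2 scale in females. Acox2 at -1.67 (adjusted p = 0.0709) and Ehhadh at -0.73 (adjusted p = 0.0771) did not pass, and Acaa1a differed by -0.02 (adjusted p = 0.965). With sex as a covariate, the 6 members called over all mice were called. That fit called 1437 of the 14410 genes in either direction.

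Of 10 markers listed for colonocytes, the absorptive cells, 1 was called lower and none higher, against 8.75% and 8.14% of all genes. The summed normalized count of the 10 was 241953 to 387869 in ApcMin/+ mice and 200247 to 235945 in ApcMin/+; p16cis/cis mice, without overlap. Epcam, Cdh1 and Krt8 on that list are made by other epithelial cells too, so it does not measure absorptive cells alone. The marker called was Slc26a3, the chloride bicarbonate exchanger of mature colonocytes, at a log2 fold change of -1.23 (limma adjusted p = 0.00848). Epcam, Krt20, Car1, Aqp8, Car4, Ceacam1 and Vil1 had log2 fold changes of -0.81 to -0.30, and Krt8 and Cdh1 of -0.03 and 0.0054, none of which passed (limma adjusted p of 0.075 or more). The 6 markers of crypt base and dividing cells summed to 5279 to 8868 and 8852 to 11722, and only Mki67, a marker of dividing cells, was called (0.92, limma adjusted p = 0.00656). Of 7 goblet cell markers, Spink4 was called higher, and their sums overlapped at 283594 to 437281 and 302681 to 583408. Zg16 alone among them had a log2 fold change below 0, at -0.89, and did not pass (limma adjusted p = 0.0775). The 9 immune markers summed to 181 to 1767 in ApcMin/+ mice and 335 to 544 in ApcMin/+; p16cis/cis mice, with Lyz2 and Jchain called lower, and the 7 markers of muscle, fibroblasts and vessels to 78.8 to 412 and 68.9 to 160, with Col3a1 called lower. Among the immune markers, Cd68 at 0.85 (limma adjusted p = 0.0903) and Cd3e at 0.18 (limma adjusted p = 0.852) were above 0 and did not pass. The 4 nerve and glia markers summed to at most 57.4. The 4 hepatocyte markers summed to 1007 to 1962 in ApcMin/+ mice and 1773 to 2086 in ApcMin/+; p16cis/cis mice. Ttr alone was at 946 to 1875 and 1693 to 1961 in these groups, and Ttr and Apoa2 were called higher. Alb was at 40.7 to 79.6 and Serpina1c at no more than 1.27. No marker was at 0 in all mice, and the colonocyte and goblet cell markers stood far above all other lists. The part of the colonocyte and dividing cell markers in the fall of the members was not tested.

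The mitochondrial share of reads, given above, also moved with the genotype, which took 78.1% of its variance. With that share as a covariate, limma called no gene at all (0 of 14410, with 798 at an unadjusted p under 0.05), and the members had log2 fold changes from -2.38 for Acaa1b to -0.01 for Ehhadh with adjusted p of 0.848 or more. In such a fit the share and the genotype cannot be told apart. GC content was related to the fold changes too, with a correlation of 0.24 across the 14403 genes that have a value, and the transcripts of the members held 44.5% to 58.9% GC against a median of 49.7%. After correcting each mouse for GC content and transcript length, Acaa1b, Acox2, Ehhadh, Scp2, Hsd17b4 and Abcd3 were called lower, as before. Acaa1b was at -3.62 (limma adjusted p = 0.00366) and Ehhadh at -0.94 (limma adjusted p = 0.03). The share of all genes called in that fit is not given here, so the calls are read gene by gene.

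Among 35 other peroxisomal genes of fatty acid metabolism, 29 were tested. Of these, 9 were called lower and none higher, against 8.75% and 8.14% of all genes. None was higher at an unadjusted p under 0.05 either, nor called higher by edgeR or DESeq2, and the median log2 fold change was -0.23. Acot4, a thioesterase of dicarboxylic acyl-CoA, was at 288, 295, 437, 453 and 242 in ApcMin/+ mice and 174, 163, 143 and 163 in ApcMin/+; p16cis/cis mice. The groups did not overlap, and Acot4 fell by 1.05 on the log2 scale (standard error 0.19, limma adjusted p = 0.00656). Acbd5, a membrane protein that binds very long acyl-CoA and tethers peroxisomes to the endoplasmic reticulum, fell by 0.69 (limma adjusted p = 0.00311), from 993 to 1190 in ApcMin/+ mice to 628 to 797 in ApcMin/+; p16cis/cis mice. Both kept the call without any single mouse, and after the GC correction Acbd5 was at -0.41 (limma adjusted p = 0.0187). Among females only, Acot4 at -0.76 did not pass (limma adjusted p = 0.0726) and Acbd5 at -0.84 was called (limma adjusted p = 0.0162). Ephx2, an epoxide hydrolase, and Hsdl2, a dehydrogenase-like protein, were called at -0.85 and -0.74 (limma adjusted p = 0.037 and 0.0229). Ephx2 did not pass among females only, at -0.35 (limma adjusted p = 0.223), or with sex as a covariate, at -0.68 (limma adjusted p = 0.088). The remaining 5 genes called lower were Acad11, Cat, Far1, Lonp2 and Crot, at -0.60 to -0.46. The count of calls was 4 or 5 without ApcMin/+ replicate 2 (5) or 3 (4) or ApcMin/+; p16cis/cis replicate 2 (5), 3 (5) or 4 (4). In these fits Ephx2 lost its call, as it did without ApcMin/+; p16cis/cis replicate 1 (adjusted p up to 0.0837), and Hsdl2 lost its call without ApcMin/+ replicate 3 or ApcMin/+; p16cis/cis replicate 2, 3 or 4 (up to 0.0641) and after the GC correction (adjusted p = 0.0773).

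Of 16 genes that build peroxisomes, Pex11a, Pex7 and Pex13 were called lower and none higher, against 8.75% and 8.14% of all genes. None was higher at an unadjusted p under 0.05 either, nor called higher by edgeR or DESeq2, and the median log2 fold change was -0.24. Pex11a, which promotes division of the organelle, was at -0.65 (limma adjusted p = 0.0268). Pex7, the import receptor for the N-terminal signal that straight-chain thiolases carry, was at -0.56 (limma adjusted p = 0.00843). Pex13, part of the import pore, was at -0.42 (limma adjusted p = 0.0226). Pex5, the receptor that imports most matrix enzymes, was at -0.23 (limma adjusted p = 0.205). Pex7 kept its call without any single mouse. The count was 1 without ApcMin/+ replicate 2 or 3 or ApcMin/+; p16cis/cis replicate 2 or 4, since Pex11a and Pex13 lost theirs (adjusted p up to 0.0779 and 0.0676), and Pex11a also lost it without ApcMin/+; p16cis/cis replicate 3 (adjusted p = 0.061). After the GC correction Pex7 (adjusted p = 0.11) and Pex13 (adjusted p = 0.565) did not pass.

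Of 17 enzymes and carriers of mitochondrial beta-oxidation, 8 were called lower and 1 higher, against 8.75% and 8.14% of all genes. The median was -0.40. Acadvl, the dehydrogenase of very long chains, was at -0.84 (limma adjusted p = 0.00448), and Etfdh and Etfa, which pass electrons to the respiratory chain, at -0.79 and -0.60 (limma adjusted p = 0.00571 and 0.00629). These 3 kept the call without any single mouse. Among females only, Acadvl and Etfdh were called (limma adjusted p = 0.0418 and 0.0341) and Etfa at -0.39 did not pass (limma adjusted p = 0.124). Slc25a20, the carnitine carrier, was at -0.64 (limma adjusted p = 0.0228) and lost the call without ApcMin/+ replicate 3 or ApcMin/+; p16cis/cis replicate 2 (adjusted p = 0.0597 and 0.0643). Etfb was the gene called higher (0.93, limma adjusted p = 0.0446), with overlapping groups, and it lost the call without any one of 7 of the mice, ApcMin/+ replicate 4 and ApcMin/+; p16cis/cis replicate 1 being the exceptions (adjusted p up to 0.121). Etfb was not called by edgeR (adjusted p = 0.0649), with sex as a covariate (adjusted p = 0.0669) or after the GC correction, where it was at 0.58 (adjusted p = 0.102). DESeq2 called Etfb (adjusted p = 0.0218), and so did limma among females only, at 1.53 (adjusted p = 0.00334). The remaining 4 called lower were Cpt1a, Acadl, Acadm and Decr1. The count was 3 without ApcMin/+ replicate 3 or ApcMin/+; p16cis/cis replicate 2, and 4 without ApcMin/+; p16cis/cis replicate 3 or 4. Decr1 is the mitochondrial counterpart of Decr2, and its log2 fold change was -0.38 (limma adjusted p = 0.0272).

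**Figure D4:**
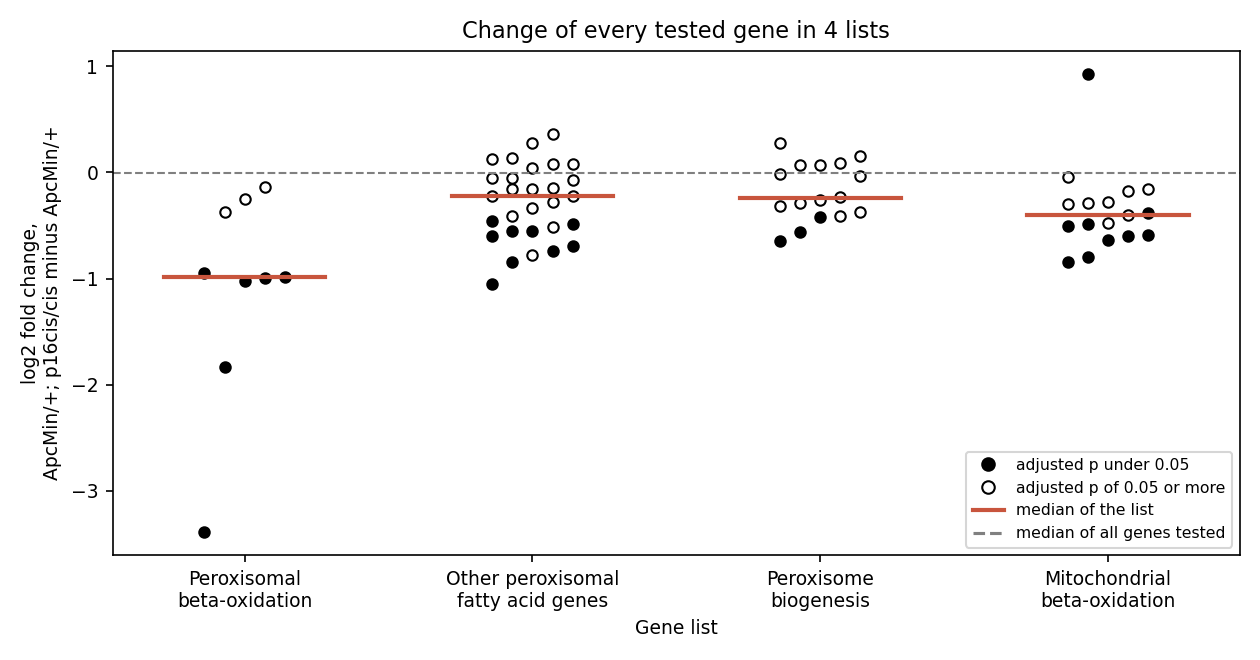
Log2 fold change (ApcMin/+; p16cis/cis minus ApcMin/+) of every tested gene in 4 lists, filled where the adjusted p was under 0.05, with the median of each list in red and that of all genes tested as a dashed line. The medians are -0.98 for the 9 members, -0.23 for other peroxisomal fatty acid genes, -0.24 for biogenesis and -0.40 for mitochondrial beta-oxidation, and 1 filled point, in the fourth list, lies above 0.

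Of 5 regulators of peroxisomal genes, Ppara and Ppargc1a were called lower and Ppard higher, against 8.75% and 8.14% of all genes. Ppara, the receptor itself, was at 164, 188, 195, 277 and 276 in ApcMin/+ mice and 138, 94.1, 110 and 61.1 in ApcMin/+; p16cis/cis mice, without overlap. It fell by 1.15 on the log2 scale (standard error 0.25, limma adjusted p = 0.0111). Among females only, its log2 fold change was -1.30 and did not pass (limma adjusted p = 0.0558). In Ppara, unlike in Acaa1b, an ApcMin/+ female (replicate 5) was level with the highest male. Ppard, a related receptor, rose by 0.47 (limma adjusted p = 0.0109), from 5021 to 6175 in ApcMin/+ mice to 7634 to 8647 in ApcMin/+; p16cis/cis mice. Ppargc1a, a coactivator, fell by 0.59 (limma adjusted p = 0.0272), with overlapping groups, and lost the call without ApcMin/+ replicate 1 or 2 or ApcMin/+; p16cis/cis replicate 2 or 4 (adjusted p up to 0.0835) and after the GC correction (adjusted p = 0.21). Pparg at -0.46 (limma adjusted p = 0.0653) and Rxra at -0.29 (limma adjusted p = 0.0772) did not pass, and both were called without ApcMin/+; p16cis/cis replicate 3 (adjusted p = 0.035 and 0.0379). Pparg was also called by DESeq2 (adjusted p = 0.0362) and Rxra after the GC correction (adjusted p = 0.038).

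The genes whose log2 levels followed Acaa1b most closely over the 9 mice, by Pearson's r and as a description that includes the genotype difference, were Tctex1d2 (0.99), Acot4 (0.98), Slc22a5 (0.98), Aktip (0.98) and Creb3l3 (0.98). Creb3l3, a membrane-bound transcription factor of lipid metabolism, was at 238, 328, 722, 1074 and 217 in ApcMin/+ mice and 48.0, 68.6, 60.1 and 102 in ApcMin/+; p16cis/cis mice. Creb3l3 was at -2.63 on the log2 scale of fold changes (standard error 0.44). Since these genes were chosen for following Acaa1b over both genotypes, their own changes are given as a description. Slc22a5, a carnitine transporter of the cell membrane, was at -0.77, Tctex1d2 at -0.78 and Aktip at -0.28. Among the other members, r to Acaa1b was highest for Hsd17b4 (0.96) and Abcd3 (0.95) and lowest for Decr2 (0.65).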

How the data were processed

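Per the methods, the libraries were sequenced on the BGISEQ-500 platform, aligned with BOWTIE2 and counted with RSEM. Tool versions, genome build and annotation are not given in the sources used here. The authors deposited signal values, namely counts per gene scaled by 1 size factor for every mouse (normalized counts of DESeq2). Division by the step of the column gave whole reads for 100% of positive values (tolerance 0.01 reads). Read numbers and floors of 3 reads cover counting error only.

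Of the 54146 gene identifiers, 54079 matched GENCODE M21 (GRCm38) when versions were ignored. Genotype was the only term of the main test, limma 3.58.1 (R 4.3.3) with a variance trend on log2(value + 1), which took 14410 genes that reached 10 in 4 mice or more. Exact permutation over the 126 splits served for single values. Alternatives were count tests of the recovered reads (edgeR 4.0.16 with 2469 genes called, DESeq2 1.42.0 with 3230, against 2434 by limma), other scalings, filters and covariates, females only, a replicate block and each mouse left out. A loess correction for GC content and transcript length (span 0.5) was chosen after seeing the data. The procedures were tested on simulated data.

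The members and lists were chosen with earlier results of these data known. Named genes are the 9 members, 5 regulators, up to 4 called genes per list and direction, and the 5 genes most like Acaa1b. Remaining called genes and markers, named beside their counts, Pex5 and Decr1 were chosen after their values were seen. Levels per kb use the principal transcript. Protein sequences were not used here, and 2 genes of a list are not reported here.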

Additional observations from a re-analysis of the deposited data

Results flagged for a closer look

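Of 64 groups of mice checked over the named genes, 3 held a mouse that stood apart from its group by Dixon's criterion, and about 3.2 would be expected by chance. Pparg was at a normalized count of 3110 in ApcMin/+ replicate 4 and at 1922 to 2192 in the other ApcMin/+ mice. In ApcMin/+; p16cis/cis replicate 4, Ppard was at 8647 against 7634 to 7776, and Slc25a20 was at 2951 against 2471 to 2547. None of the 9 peroxisomal beta-oxidation genes was among them.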

How the results depend on the processing

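Over 21 alternatives, Acaa1b, Scp2, Hsd17b4 and Abcd3 were called lower in all but the fit with the mitochondrial share as a covariate. With that covariate Acaa1b was at -2.38 (adjusted p = 0.848), and 0 genes, 0 members and 0 genes of each list were called. With a fold change over 2 the members called were 3, and with Bonferroni adjustment 2. With sex as a covariate 1437 genes were called in all, with 5 other peroxisomal genes, 1 biogenesis gene and 4 mitochondrial enzymes. Among females only these counts were 898, 2, 0 and 3, with fewer mice in the fit, the log2 fold change of Decr2 turned to 0.075, and the ratio of Acaa1b to Acaa1a differed by -2.28 (exact permutation test, p = 0.1, the smallest possible). Leaving out single mice gave 1183 to 3488 genes called (fewer by over 1.5 times without ApcMin/+ replicate 2 or 3 or ApcMin/+; p16cis/cis replicate 2 or 4). Members called were then 5 to 7, with 4 to 10 other peroxisomal genes, 1 to 3 biogenesis genes and 3 to 9 mitochondrial enzymes. Ratio differences were -3.26 to -2.75 (exact permutation p of 0.0179 or 0.0286, each the smallest possible for the mice left). The cause of these changes was not tested.

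The replicate numbers 1 to 4 name different mice, and same-numbered mice correlated in their deviations from the group means at -0.18, 0.07, 0.05 and 0.14, with 2 of 4 correlating best with their own number. With the replicate number as a block over 8 mice, the ratio difference was -3.17 (exact permutation p = 0.125, the smallest possible), Acaa1b kept its call, and Acaa1a was called (-0.48, adjusted p = 0.0311). That fit leaves out ApcMin/+ replicate 5, without which Acaa1a was called with no block too (-0.48, adjusted p = 0.0417).

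Depth limits Acaa1b and Acox2 most, at 8 to 23 reads per ApcMin/+; p16cis/cis mouse.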
